A study of Mus musculus with 2 samples.

Results

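The 34 genes described here take glucose up and convert it to pyruvate, lactate and acetyl-CoA: glucose transporters, the enzymes of glycolysis, lactate dehydrogenase, the monocarboxylate and pyruvate carriers, the pyruvate dehydrogenase complex and its kinases. They were chosen by gene symbol for their place in the pathway, joined to the tables by gene identifier, and are 34 of 55536 annotated genes. Aldoa matched a second identifier, listed at 2.05 and 0.68 TPM in replicates 1 and 2, and the identifier with the higher level was used.

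Cortex of the left cerebral hemisphere was taken from male B6CASTF1/J mice, F1 hybrids between the B6 and CAST strains, at 18 to 20 months of age. There were 2 libraries of total RNA, replicates 1 and 2 of 1 group, each made from 300 ng of RNA with ERCC spike-ins. Both libraries carry the same donor identifier but separate biosample identifiers, so the spread between them may be technical. There is no other age, sex, region or treatment, so the data give levels in aged cortex and the difference between the libraries. That difference has 1 library on each side and therefore no test and no p-value.

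Glycolysis splits glucose into pyruvate, first spending ATP in a preparatory phase and then regaining ATP and NADH in a payoff phase. Pyruvate is either reduced to lactate by lactate dehydrogenase, which restores NAD, or enters mitochondria through the pyruvate carrier and is oxidised by pyruvate dehydrogenase, which the kinases of the Pdk family switch off. In brain, glucose crosses the endothelium and enters astrocytes through GLUT1 and enters neurons through GLUT3, and lactate passes between cells through the monocarboxylate transporters.

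Levels are given as TPM, a relative abundance that divides by transcript length and so can be compared between genes. The first quantification, from tables in the layout of RSEM, is used unless the second, from a table in the layout of kallisto, is named. Annotated genes held 22827984 and 29897486 expected counts in replicates 1 and 2. Cortical neuron markers were present, with Slc17a7 at 581 and 562 TPM and Camk2a at 1173 and 1050.0, while 1 of 4 skeletal muscle markers reached 1 TPM in both libraries. Between the libraries, 8 of 8 striatal neuron markers were higher in replicate 2 (177 and 375 TPM summed) and 4 of 4 nuclear noncoding RNAs were lower (8420 and 4964 TPM summed). In bulk tissue, fewer cells of a type and less RNA per cell cannot be told apart.

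All 34 members reached 1 TPM in both libraries, against 58.5% of the 22015 nuclear protein-coding genes. Of the members, 30 reached 10 TPM and 15 reached 100 TPM in both libraries, a level held by 6.45% of the 12868 detected nuclear protein-coding genes. The median member stood at 76.9 TPM in replicate 1 and 68.2 in replicate 2, beside 16.8 and 15.4 for detected protein-coding genes. The members together held 1.41% and 1.497% of nuclear protein-coding TPM, a mean of 1.45 ± 0.07% (SD, n = 2).

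The 9 enzymes of the preparatory phase summed to 2601 and 2603 TPM and the 6 of the payoff phase to 2739 and 2876, so that these groups held most of the members' RNA. The 2 lactate dehydrogenase genes followed with 516 and 529 TPM and the 4 pyruvate dehydrogenase subunits with 265 and 258. The 5 most abundant members held 54.1% of the summed level in replicate 1 and 55.7% in replicate 2. Ordered by mean, 12 of 33 neighbouring members had deposited TPM intervals that did not overlap in either library, so much of the exact order is not resolved. The confidence level of these intervals is not stated in the labels or headers. They are centred on a posterior mean, so the listed TPM can sit near an edge or outside.

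**Figure D1:**
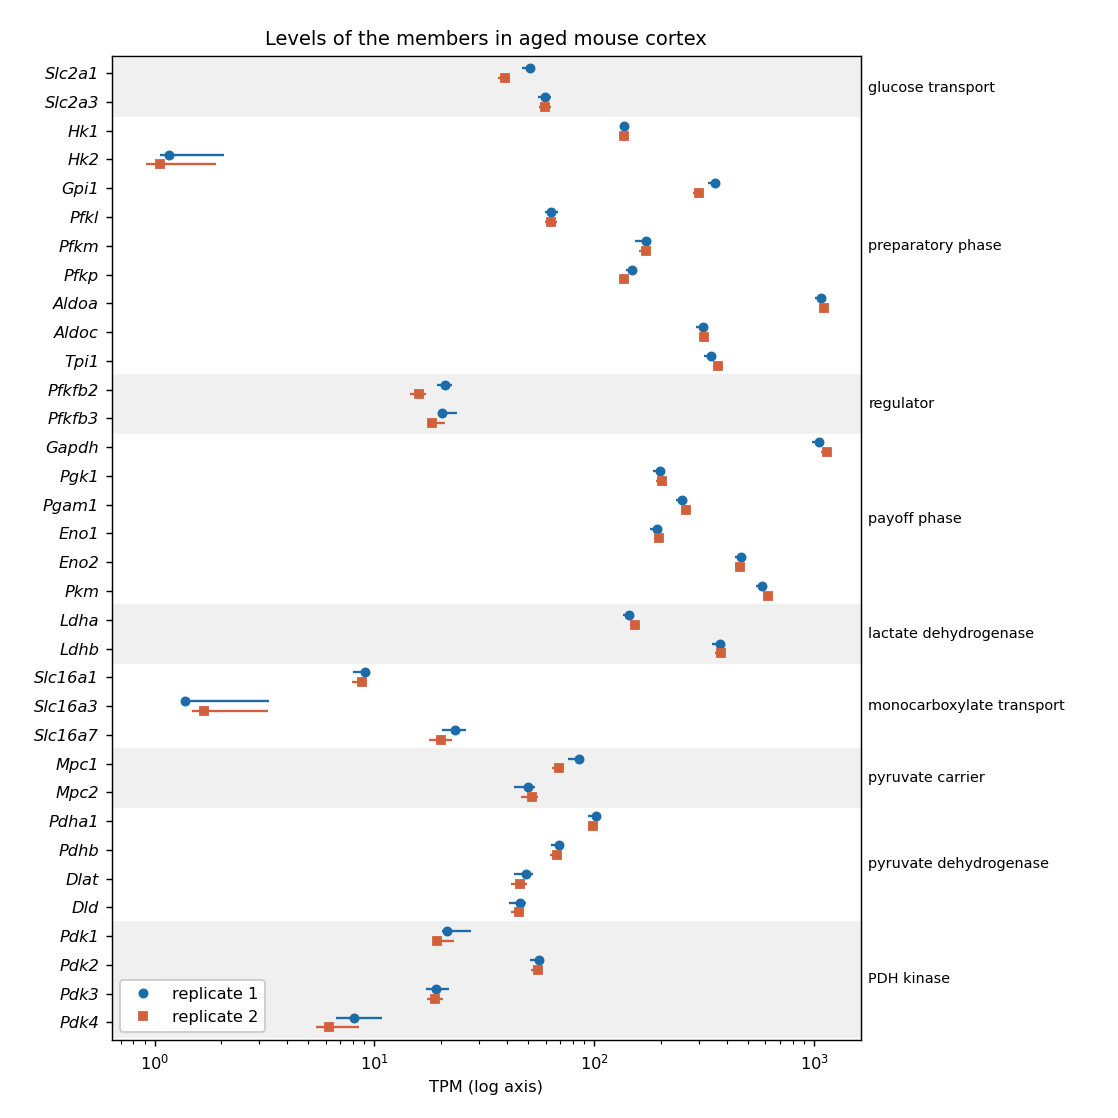
TPM of each member on a log axis, grouped by role, with replicate 1 as circles, replicate 2 as squares and the deposited interval of each value as a line. Gapdh and Aldoa stand near 1000 TPM, and Hk2 and Slc16a3 near 1.

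The glucose transporters were the first step and stood at middle levels. Slc2a3, the neuronal transporter GLUT3 (ENSMUSG00000003153.10, chromosome 6, 122727809 to 122801640 on GRCm38), was at 59.5 and 59.7 TPM in replicates 1 and 2. Slc2a1, the endothelial and astrocytic transporter GLUT1 (ENSMUSG00000028645.11, chromosome 4, 119108711 to 119137983), was at 51.1 and 39.2 TPM. Slc2a3 was above Slc2a1 in both libraries by a mean log2 ratio of 0.41 ± 0.27, but the ratio was 0.22 in replicate 1 and 0.61 in replicate 2, and in the second quantification the mean was -0.10. Which transporter RNA is more abundant therefore depended on the quantification. Of Slc2a1, 37.1% and 32.6% of TPM was assigned to Slc2a1-204, a transcript annotated as a target of nonsense-mediated decay.

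Of the hexokinases, which trap glucose as glucose 6-phosphate, Hk1 accounted for nearly all the RNA. Hk1, the form of brain (ENSMUSG00000037012.18, chromosome 10, 62268855 to 62379908), was at 137 TPM in both libraries, and Hk2, the form of muscle and fat, at 1.16 and 1.06. The ratio was 123-fold, 6.95 ± 0.09 on the log2 scale. In the second quantification the log2 ratio was 5.58 in replicate 1 and 7.38 in replicate 2, so its size is uncertain there. Hk2 rested on 93 and 104 expected counts. Gpi1, which converts glucose 6-phosphate to fructose 6-phosphate, was at 355 and 301 TPM and exceeded Hk1 2.39-fold.

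Phosphofructokinase, the committed step, was made from 3 genes at unequal levels. Pfkm, the muscle-type subunit, was at 171 and 172 TPM and Pfkp, the platelet-type subunit, at 148 and 137. Pfkl, the liver-type subunit, was at 63.4 and 63.3 TPM. Pfkm exceeded Pfkl 2.71-fold and Pfkp exceeded Pfkl 2.25-fold, while Pfkm over Pfkp was at a mean log2 ratio of 0.27 ± 0.09. That last ratio was 0.54 in the second quantification and -0.11 in expected counts, which are not per length. Of Pfkp, 59.9 and 40.8 TPM lay on transcripts annotated as retained intron, while all expected counts of Pfkm lay on coding transcripts. Both ratios with Pfkp therefore include RNA not annotated as coding. The bifunctional enzymes that make and break fructose 2,6-bisphosphate, the activator of phosphofructokinase, were far lower. Pfkfb2 was at 20.95 and 15.9 TPM and Pfkfb3 at 20.3 and 18.2. They were not separated from each other, with a mean log2 ratio of -0.08 ± 0.17.

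Aldolase, which splits the sugar, was among the most abundant messenger RNAs of the tissue. Aldoa (ENSMUSG00000030695.16, chromosome 7, 126795234 to 126800751) was at 1075 and 1113 TPM and ranked 5 and 4 among nuclear protein-coding genes. Aldoc, the brain aldolase found mainly in astrocytes, was at 312 and 315 TPM. Aldoa exceeded it 3.49-fold, 1.80 ± 0.02 on the log2 scale, so the SD was small beside the ratio. Tpi1, the isomerase that interconverts the triose phosphates made by aldolase, was at 338 and 364 TPM, and Aldoa exceeded it 3.12-fold.

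In the payoff phase, Gapdh, the NADH-producing dehydrogenase (ENSMUSG00000057666.18, chromosome 6, 125161715 to 125166467), was at 1054 and 1141 TPM. It was not separated from Aldoa, with a ratio of 0.981 in replicate 1 and 1.02 in replicate 2. Pgk1, the first ATP-producing kinase, was at 199.65 and 203 TPM and Pgam1, the mutase after it, at 251 and 261. Gapdh exceeded Pgk1 5.44-fold, and 10.7-fold in the second quantification. Eno2, the neuronal enolase, was at 464 and 459 TPM and Eno1, the enolase of most cell types, at 193 and 197. Eno2 exceeded Eno1 2.37-fold, 1.24 ± 0.04 on the log2 scale, a ratio that near-identical copies of Eno1 reduce, as described with the copies.

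Pkm, the pyruvate kinase that ends glycolysis (ENSMUSG00000032294.17, chromosome 9, 59656368 to 59679375), was at 577 and 615 TPM and ranked 43 and 38. It exceeded Eno2 1.29-fold in the first quantification, and 1.10-fold in the second, where it was no longer called. The gene makes 2 enzymes, M1 and M2, by choosing 1 of 2 mutually exclusive coding exons. M1 is the form of most differentiated tissues including neurons, and M2 is the allosterically regulated form of proliferating cells and of glia. The exons are shown because the share of each is the result that follows. Both are 167 bases, on the plus strand of chromosome 9 on GRCm38: the upstream exon of Pkm-202, which encodes the M1 form, is chr9:59675029-59675195 and the downstream exon of Pkm-201, which encodes the M2 form, is chr9:59675568-59675734. Capitals mark the 64 positions at which the exons differ when laid side by side without gaps, and identity is 61.7%.
Pkm upstream exon: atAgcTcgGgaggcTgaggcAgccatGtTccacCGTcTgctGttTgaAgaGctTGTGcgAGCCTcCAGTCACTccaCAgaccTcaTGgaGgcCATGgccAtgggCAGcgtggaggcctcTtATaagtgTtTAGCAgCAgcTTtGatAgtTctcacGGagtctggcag
Pkm downstream exon: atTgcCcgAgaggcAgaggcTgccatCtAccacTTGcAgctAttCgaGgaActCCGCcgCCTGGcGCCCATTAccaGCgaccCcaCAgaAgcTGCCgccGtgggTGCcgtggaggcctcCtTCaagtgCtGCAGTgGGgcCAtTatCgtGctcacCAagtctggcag
Of the TPM in transcripts that carry either exon, the upstream exon held 52.4% in replicate 1 and 55.1% in replicate 2, a mean of 53.8 ± 1.91% (SD, n = 2). In expected counts its share was 47.8% and 50.5%, and in the second quantification 46.9% and 49.5%. Both forms were therefore present at similar levels, and which of them led depended on the measure. The upstream share was higher in replicate 2 by each of the 3 measures.

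Lactate dehydrogenase RNA was mainly of the B type. Ldhb, the subunit typical of heart and neurons (ENSMUSG00000030246.11, chromosome 6, 142490249 to 142507957), was at 372 and 376 TPM. Ldha, the subunit typical of muscle and glia (ENSMUSG00000063229.15, chromosome 7, 46841475 to 46855627), was at 144 and 153 TPM. Ldhb exceeded Ldha 2.52-fold, 1.33 ± 0.05 on the log2 scale, and 3.98-fold in the second quantification, so the direction held and the size did not.

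The carriers of lactate and pyruvate across membranes spanned a wide range. Of the plasma membrane transporters, Slc16a7, the neuronal MCT2, was at 23.3 and 20.1 TPM and Slc16a1, the MCT1 of endothelium and glia, at 9.05 and 8.74. Slc16a3, the MCT4 of astrocytes, was at 1.38 and 1.68 TPM on 36 and 50 expected counts. Their order was the same in both libraries, Slc16a7 exceeding Slc16a1 2.44-fold and Slc16a1 exceeding Slc16a3 5.84-fold. The log2 ratio of Slc16a1 over Slc16a3, 2.55, was 1.90 with the posterior mean TPM and 3.99 in expected counts. The subunits of the mitochondrial pyruvate carrier, Mpc1 and Mpc2, were at 84.7 and 69.1 TPM and at 50 and 51.95 TPM. Mpc1 was the higher in both libraries, with Mpc2 over Mpc1 at -0.59 ± 0.25 on the log2 scale, but the second quantification did not call this pair.

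The pyruvate dehydrogenase complex turns pyruvate into acetyl-CoA, and 4 of its subunits were members, with means from 45.8 to 100.05 TPM. A further subunit, Pdhx, was not a member and stood at 22.75 and 22.76 TPM. Pdha1 and Pdhb, the subunits of the decarboxylase, were at 101.4 and 98.7 TPM and at 69.1 and 67.3 TPM. Dlat, the acetyltransferase, was at 48.7 and 46.1 TPM and Dld, the dihydrolipoyl dehydrogenase shared with other complexes, at 46.1 and 45.5. Pdha1 exceeded Pdhb 1.47-fold, and Dlat and Dld were not separated, with a mean log2 ratio of 0.05 ± 0.04. In the second quantification Pdha1 exceeded Pdhb 1.15-fold and Dlat exceeded Dld 1.41-fold.

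Of the 4 kinases that inactivate the complex, Pdk2 was the most abundant. It was at 55.9 and 55.1 TPM, Pdk1, a target of hypoxia signalling, at 21.5 and 19.3 and Pdk3 at 18.95 and 18.8. Pdk4, which fasting and fatty acids induce in many tissues, was lowest at 8.07 and 6.22 TPM. Pdk2 exceeded Pdk1 2.73-fold, Pdk3 2.94-fold and Pdk4 7.83-fold, and all 3 ratios were called in the second quantification too.

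In all, 21 pairs of members were compared within each library, and in 19 the same gene was higher in both, with intervals clear of each other. Of these, 18 had the same sign in the second quantification. The exception was the pair of glucose transporters. Mpc2 over Mpc1 and Pkm over Eno2 kept their sign but were not called in the second quantification. Dlat over Dld was called only in the second.

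**Figure D2:**
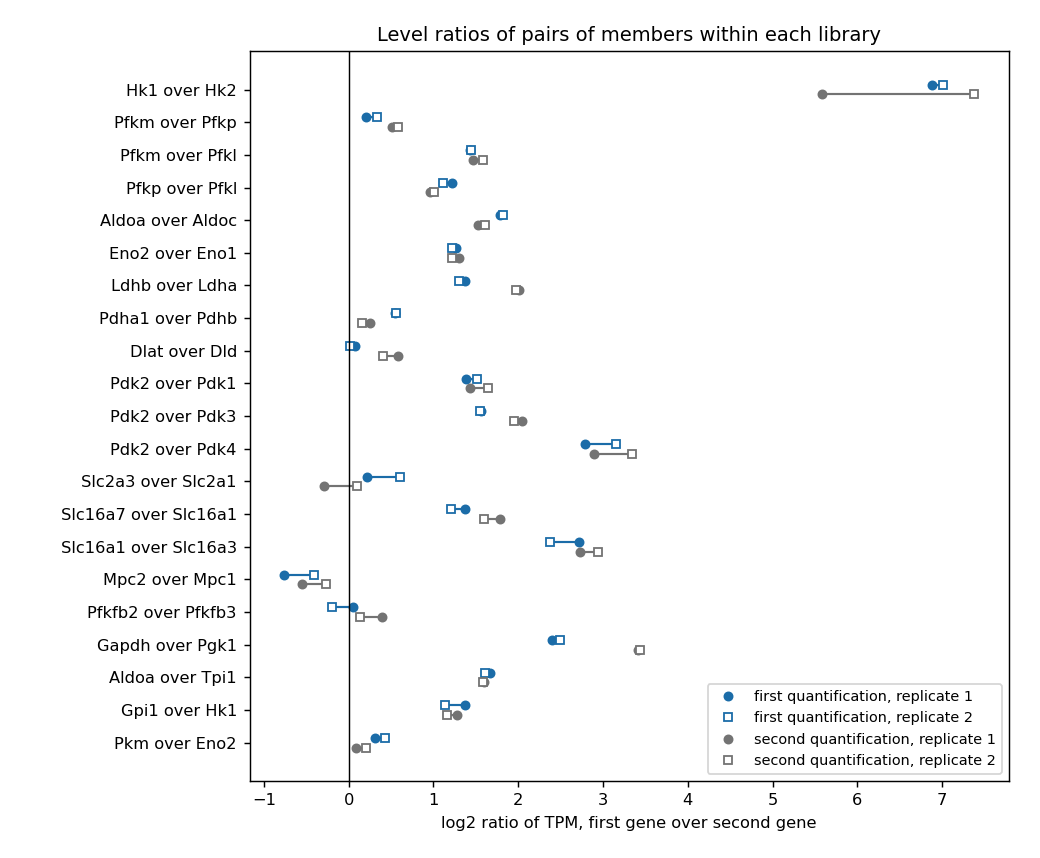
Log2 ratio of TPM of the first named gene over the second, for 21 pairs of members, in replicate 1 (filled circles) and replicate 2 (open squares), with blue for the first and grey for the second quantification. Hk1 over Hk2 is far to the right at 6.95 on average, and Slc2a3 over Slc2a1 crosses 0 in the second quantification.

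Among transcripts of 1 gene, the libraries resembled each other more than the quantifications did. Of 33 members with more than 1 annotated transcript, 32 had the same most abundant transcript in both libraries, where 87.1% of such nuclear protein-coding genes did. The exception was Slc16a7, in which Slc16a7-206 held 37.8% and 35.2% and Slc16a7-205 held 30.5% and 36.8%. Only 23 of the 33 members had the same leading transcript in all 4 estimates, 2 libraries by 2 quantifications, beside a background of 65% of genes.

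The 10 members without a single leading transcript included some of the most abundant. Gapdh was assigned mainly to Gapdh-208, a processed transcript of 483 bases, with 65.3% and 68.2%, and to Gapdh-201 with 32.7% and 30.3%. The second quantification listed both at 0.00% and put 36.9% and 40.0% on Gapdh-207, a coding transcript of 471 bases. Because TPM divides by length, this choice bears on the level of the gene. The effective length of Gapdh was 661 and 639 bases, and the ratio of Gapdh to Aldoa, near 1 in the first quantification, was 2.22 and 2.20 in the second.

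Ldha and Hk1 differed in the same way. Ldha-202 held 95.1% and 94.98% of Ldha in the first quantification, and Ldha-201 held 57.1% in both libraries in the second. For Hk1 the leading transcript was Hk1-202 with 56.5% and 54.8%, and in the second quantification Hk1-205 with 34.4% and 36.8%. Pfkm went from Pfkm-201, with 63.2% and 56.8%, to Pfkm-205, with 39.5% and 38.5%. In these 3 genes the leading transcript was not settled by the data.

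**Figure D3:**
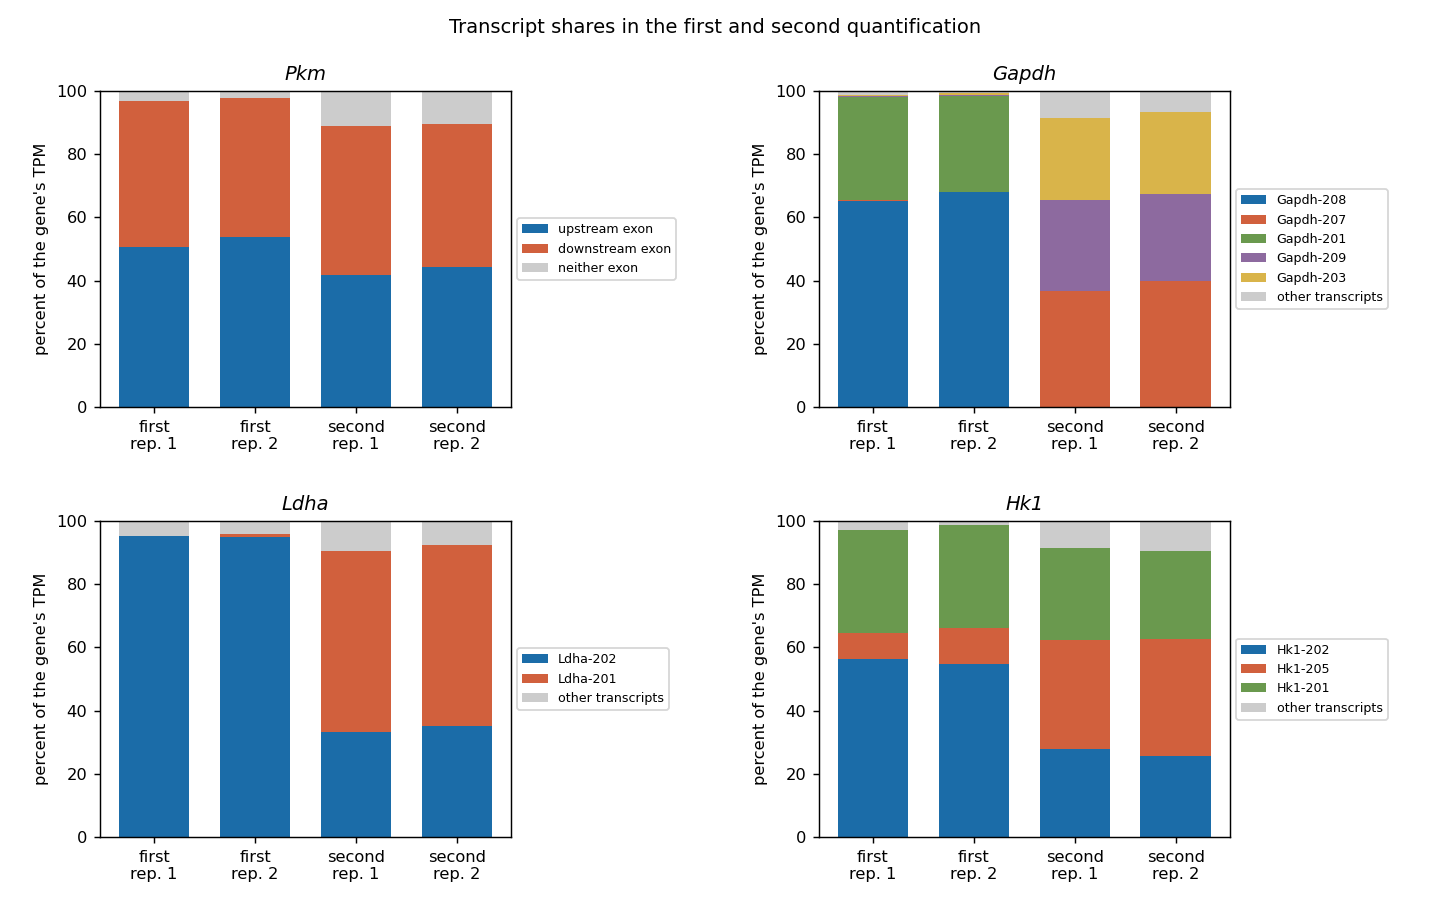
Percent of each gene's TPM held by its transcripts in Pkm, Gapdh, Ldha and Hk1, stacked to 100, for replicates 1 and 2 of the first and second quantification; for Pkm, transcripts are grouped by the exon they carry, those with neither exon in grey. The bars of 1 quantification resemble each other, and Gapdh shares no leading transcript between the quantifications.

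Retrocopies limit the level of several members. By sequence, 11 members had 110 annotated copies elsewhere in the genome at 95% identity or more over at least 50% of the copy, 92 of them copies of Gapdh, and 14 copies of 9 members reached 1 TPM in both libraries. Reads from a copy and its member can be exchanged by the estimation, so the level of such a member is uncertain. Copies held 5.54% and 5.80% of the combined TPM of all members and copies, but 18.9% and 31.8% of that of Mpc1 and 53.9% and 53.5% of that of Eno1.

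Eno1 was the member with the largest share of its signal on copies. Eno1b, an annotated coding gene 99.5% identical to Eno1, was listed at 146 and 148 TPM and Gm4735, a processed pseudogene, at 79.8 and 79.4. Eno1 and its copies together were at 418 and 425 TPM, and with that sum the excess of Eno2 over it went from 2.37-fold to 1.10-fold. Whether the RNA listed on the copies comes from Eno1 was not tested. For Gapdh, the copies together held 6.82% and 6.46%, but single copies moved between libraries: Gm12070 was listed at 34.2 and 13.04 TPM and Gm5559 at 0 and 10.6. Gm7336, 99.8% identical to Gapdh, was at 13.8 and 10.6 TPM in the first quantification and at 604 and 679 in the second.

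In TPM, Mpc1 was higher in replicate 1 and its copy Mpc1-ps in replicate 2. Mpc1-ps was at 19.7 and 32.1 TPM, on 68 and 154 expected counts, and was listed at 0 in the second quantification. The first 150 bases of the coding sequence are shown because they tell how little separates the gene, on the plus strand of chromosome 17, from the copy, on the minus strand at chr12:110858745-110858894 on GRCm38. The capital letter marks the only base that differs in this stretch.
Mpc1: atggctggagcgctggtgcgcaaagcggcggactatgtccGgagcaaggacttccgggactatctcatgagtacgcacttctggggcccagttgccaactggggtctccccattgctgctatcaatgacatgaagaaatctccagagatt
Mpc1-ps: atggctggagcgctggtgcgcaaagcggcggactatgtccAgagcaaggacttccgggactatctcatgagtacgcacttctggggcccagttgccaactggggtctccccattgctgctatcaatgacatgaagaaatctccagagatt
With 1 difference in 150 bases, a read covering the rest of the stretch fits either. The copy's log2 ratio of replicate 2 over replicate 1 was 0.83 (0.41 to 1.27), and that of Mpc1 -0.07 (-0.20 to 0.05). The sum of both, 1038 and 1324 counts, gave 0.01 (-0.11 to 0.13), so the combined level did not differ beyond counting error.

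Some members also overlap genes on the other strand, and neither labels nor headers say whether counting used strand. Fam57b, which overlaps Aldoa, was at 33.9 and 27.1 TPM and Iffo1, which overlaps Gapdh, at 32.7 and 23.5. Both were small beside the member. Yod1, which overlaps Pfkfb2, had 643 and 885 expected counts, beside 876 and 903 for Pfkfb2, so the level of Pfkfb2 is uncertain.

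The difference between the libraries was then described for the 32 members with a mean of 100 expected counts or more, which leaves out Hk2 and Slc16a3. Counts were scaled by TMM, and a gene was called where the exact 95% (Clopper-Pearson) counting interval of its log2 ratio excluded 0. Higher in replicate 2 were 21 members and lower were 4, with 7 in neither class. Among all annotated genes at that count, 28.1% were called higher and 15.6% lower, and among nuclear protein-coding genes 28.4% and 14.2%. The members' median log2 ratio was 0.14, beside 0.05 for nuclear protein-coding genes, and the range was -0.30 to 0.26. The intervals cover counting error only, since reads are not independent molecules.

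These differences were small. At a log2 ratio of 0.25 or more, Tpi1 was the only member called higher and Pfkfb2 the only one called lower, where 9.56% and 7.06% of nuclear protein-coding genes were. The count also depends on depth, as a deep gene has a narrow interval. Of members with a mean count between 5000 and 50000, 13 of 14 were higher, beside 55.9% of nuclear protein-coding genes in that range. Between 1000 and 5000 counts it was 8 of 13, beside 39.3%, and between 100 and 1000 counts 0 of 5, beside 18.2%.

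By role, all 6 enzymes of the payoff phase, both lactate dehydrogenase genes and all 4 pyruvate dehydrogenase subunits were called higher under TMM scaling, with medians of 0.19, 0.22 and 0.13, though Pdhb and Dlat turned to -0.020 and -0.018 under spike-in scaling, and Eno2 and all 4 subunits were between -0.081 and -0.018 in deposited TPM. Nuclear protein-coding genes as a whole were called higher in 28.4% of cases, and in 55.9% between 5000 and 50000 counts. Under spike-in scaling Pgk1, Eno2 and all 4 subunits were no longer called, and under scaling by total counts Pdhb and Dlat were not. Pkm, from 17953 to 26632 counts, had a ratio of 0.23 (0.20 to 0.25) and Ldha, from 3113 to 4634, one of 0.23 (0.16 to 0.30). In the preparatory phase, 7 of 8 members were higher, led by Tpi1 at 0.26 (0.21 to 0.30), though Gpi1 turned to -0.068 under spike-in scaling and to -0.24 in deposited TPM, where Pfkl was at -0.0041. Under spike-in scaling Aldoa, Aldoc and Tpi1 of this group were still called higher, and Hk1, Pfkl and Pfkm were not. Pfkp was lower at -0.07 (-0.12 to -0.03), but was not called in the second quantification, at -0.03, or in deposited TPM, and its coding transcripts alone were higher, as given with the retained introns.

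The 4 lower members were Pfkp, a regulator of phosphofructokinase and 2 transporters. Pfkfb2, with 876 and 903 counts, had a ratio of -0.30 (-0.44 to -0.16). Slc2a1, with 2058 and 2245 counts, had a ratio of -0.22 (-0.31 to -0.13), and Slc16a7, with 1739 and 2018, one of -0.13 (-0.22 to -0.04). Beside Slc2a1, all 6 endothelial markers were detected, with summed levels of 100.8 and 91.7 TPM, and 2 of them were called higher and 1 lower. The astrocyte markers summed to 1116 and 1025 TPM, 2 of 7 higher and 1 lower, where 28.4% and 14.2% of nuclear protein-coding genes were. Their part in the ratio of Slc2a1 was not tested. Neither called were Pfkfb3, Slc16a1, Mpc1, Mpc2, Pdk1, Pdk3 and Pdk4. Hk2 and Slc16a3, with too few counts for the 32, stood at -0.18 (-0.60 to 0.24) and 0.12 (-0.52 to 0.79).

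**Figure D4:**
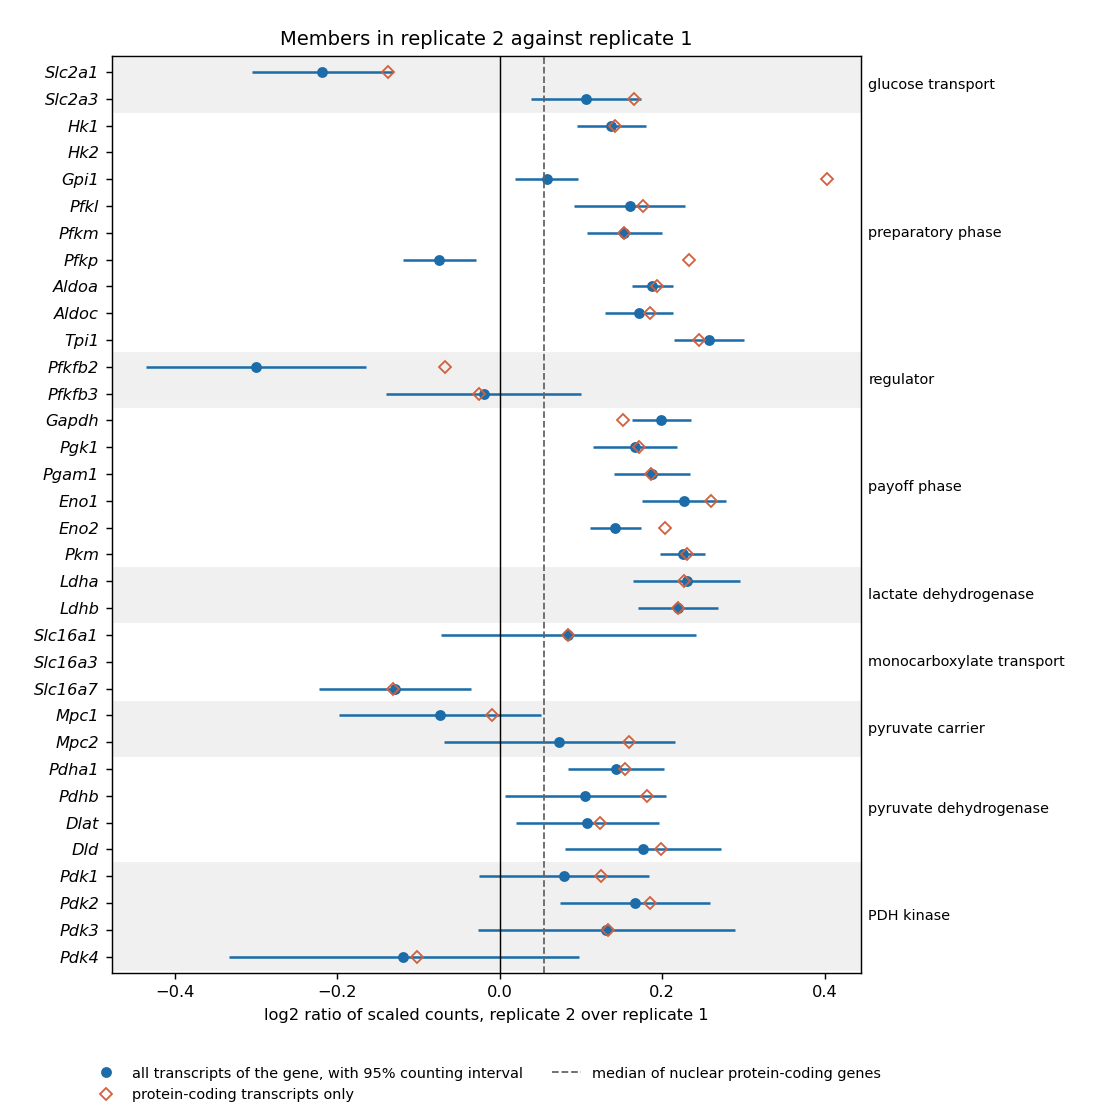
Log2 ratio of scaled counts of replicate 2 over replicate 1 for 32 members by role, as filled circles with 95% counting intervals, and for protein-coding transcripts only as open diamonds; the dashed line is the median of nuclear protein-coding genes at 0.05. Most circles lie between 0.05 and 0.26, and the diamonds of Gpi1 and Pfkp lie far to the right of their circles.

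Scaling moved the whole picture. With spike-in scaling the median of nuclear protein-coding genes went from 0.05 to -0.07 and that of the members from 0.14 to 0.01, and 9 members were called higher and 8 lower, where 7.29% and 33.9% of nuclear protein-coding genes were. In deposited TPM the medians were -0.09 and -0.01. There 4 members were higher (Aldoa, Tpi1, Gapdh and Pkm) and 4 lower (Slc2a1, Gpi1, Pfkfb2 and Mpc1), where 2.53% and 14.7% of nuclear protein-coding genes were. Relative to the protein-coding median, the members' median was higher by 0.086 under DESeq2, total-count and spike-in scaling. These values are equal by construction, since each scaling subtracts a constant from every gene. The difference was 0.094 in the second quantification and 0.076 in deposited TPM. Under every scaling of counts and in the second quantification, 12 members were called the same way: Aldoa, Aldoc, Tpi1, Gapdh, Pgam1, Eno1, Pkm, Ldha and Ldhb higher, and Slc2a1, Pfkfb2 and Slc16a7 lower. The share of nuclear protein-coding genes that meet the same rule was not computed, so this list does not set the members apart.

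Transcripts with retained introns, which are incompletely spliced and usually stay in the nucleus, also differed between the libraries. They held 6.12% of the members' TPM in replicate 1 and 3.96% in replicate 2, beside 9.73% and 7.37% over detected nuclear protein-coding genes. Of 19 members with a mean of 20 or more counts in such transcripts, 17 had a lower share in replicate 2, near the background of 84.3% of genes. In the second quantification it was 13 of the 19, and the share of all genes was not computed there. Retained introns held 6.47% and 5.21% of the members' TPM in that quantification, beside 10.5% and 8.52% over detected nuclear protein-coding genes.

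Among these 19, Pfkp and Gpi1 had the largest retained-intron shares in replicate 1 of the first quantification. In Pfkp the share was 40.4% and 29.8%, and in Gpi1 27.4% and 18.1%. In Eno2 it was 22.3% and 17.5%, while Pfkfb3, with 20.3% and 21.4%, and Tpi1, with 2.06% and 2.35%, did not go down. In Dlat the quantifications disagreed, with 14.9% and 10.6% in the first and 33.2% and 52.5% in the second. Pdhb, Dld and Mpc1 likewise went down in the first and up in the second, where they held 34.3% and 35.6%, 25.5% and 30.5%, and 10.9% and 11.7%. Aldoc went down in both, from 0.89% to 0.68% and from 18.5% to 16.6%. Pdhb and Dlat had the largest shares in replicate 1 of the second quantification.

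**Figure D5:**
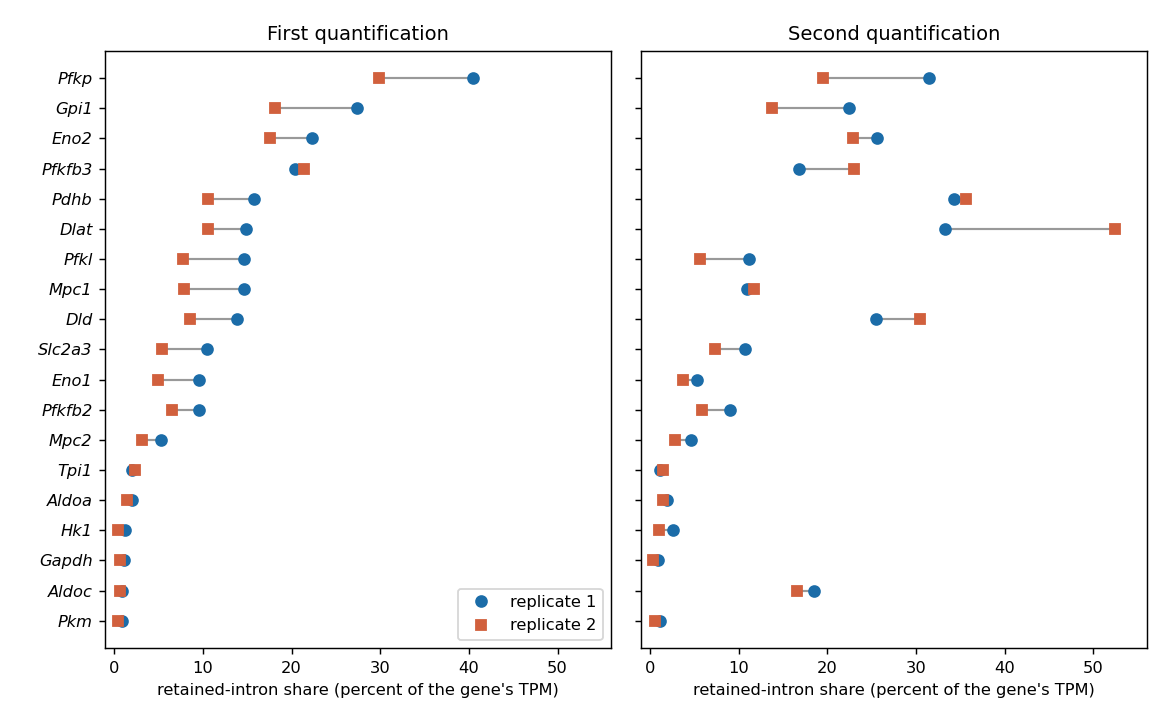
Percent of each gene's TPM in transcripts annotated as retained intron, in replicate 1 (circles) and replicate 2 (squares), for 19 members in the first (left) and second (right) quantification. In the first, the square lies left of the circle in 17 of 19 members, and in the second in 13.

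With protein-coding transcripts alone, the call of some members changed. Gpi1 coding transcripts had 5325 and 8933 counts and a log2 ratio of 0.40 (0.35 to 0.45), where the gene had 0.06. Those of Pfkp had 4250 and 6338 counts and a ratio of 0.23 (0.18 to 0.29), where the gene had -0.07 and was called lower. Pfkfb2 went from -0.30 to -0.07 (-0.23 to 0.10). The counts of called members then stood at 23 higher and 2 lower, Slc2a1 and Slc16a7, with a median of 0.17. In replicates 1 and 2, coding transcripts held 89.6% and 92.2% of the members' expected counts. Over detected nuclear protein-coding genes they held 91.1% and 92.8%. The coding-only setting was chosen after seeing the data, and the share of all genes called in it was not computed. The nuclear RNAs Malat1, Meg3, Neat1 and Snhg11 moved the same way as the retained introns, with a median log2 ratio of -0.66, and their part in these ratios was not tested.

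Beyond the members, 44 other genes of glycolysis and pyruvate metabolism were listed, and 29 were detected. Highest were Bsg, the chaperone of the monocarboxylate transporters, at 237 and 243 TPM, and Pdp1, the phosphatase that reactivates pyruvate dehydrogenase, at 95.8 and 100.3. Slc2a13, a myo-inositol transporter, was at 46.2 and 46.4 TPM. Isoforms of other tissues were low, with Eno3 of muscle at 3.80 and 3.79 TPM, Pgam2 of muscle at 3.27 and 3.06, Pklr of liver at 0.03 and 0, and Gapdhs, Pgk2 and Ldhc of testis listed at 0. Of 24 with enough counts, 8 were called higher and 1 lower, near the 28.4% and 14.2% of nuclear protein-coding genes. The median was 0.05, as it was for those genes. The lower one was Slc2a6, a glucose transporter, at -0.27 (-0.47 to -0.07). Slc2a6, Pdhx, Eno3, Pgam2, Pklr, Gapdhs, Pgk2 and Ldhc were named after their values were seen.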

How the data were processed

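Total RNA of 2 cortex libraries was analysed from 3 deposited tables per library, made on mm10 with GENCODE M21 annotation, per the deposited file lists. The expected counts, TPM values and isoform percent values of the first quantification were derived by the authors from an alignment to the transcriptome, as the deposited lists of files state. Levels are the deposited TPM. The upper bound of its interval, a deposited signal column, and the lower bound served only where intervals were compared or drawn. The estimated counts of the second quantification were derived by the authors directly from reads, as the same deposited lists state. The labels and file headers do not give the aligner, tool versions or strand setting. Alignment was to the reference, so the effect of CAST variants on a gene's count is not known.

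Expected counts were rounded and scaled by TMM (edgeR 4.0.16, R 4.3.3). Annotated genes held 22827984 and 29897486 counts. The log2 ratio of replicate 2 over replicate 1 used a prior count of 0.5 and an exact 95% interval (scipy 1.17.1). It was computed over all annotated genes that averaged at least 100 counts and tested on simulated data. The simulated data held counting error only, so that check says nothing of other variation between libraries. Copies were found with blastn 2.17.0. A member was detected at 1 TPM in both libraries. A pair was called where, in each library, the deposited interval of the same gene lay wholly above the other's; in the second quantification, where the mean log2 ratio was over 3 times its SD. DESeq2 1.42.0 size factors, total counts, spike-ins, deposited TPM, the second quantification and no count minimum were alternatives.

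All 34 members are named. Of other lists, at most the 6 genes with the highest mean TPM are named, and any with a mean count of 100 or more and a log2 ratio of 0.5 or more either way: Drd1, Drd2, Adora2a, Ppp1r1b, Penk, Tac1 and Rgs9 of striatum (1.10 to 2.48), Ttr of choroid plexus (0.97), and Malat1, Meg3 and Snhg11 of the nucleus (-0.74 to -0.65 under TMM). Some genes that meet this rule are not reported here. Members and lists were chosen with earlier results of these data known. For the marker counts that follow, the background is 28.4% of nuclear protein-coding genes called higher and 14.2% lower. Marker lists covered neurons (2 of 3 higher, 0 lower), excitatory neurons (1 and 2 of 4), inhibitory neurons (4 and 0 of 6), astrocytes, oligodendrocytes (5 and 0 of 6), their precursors (1 and 0 of 3), microglia (3 and 0 of 5), endothelium, mural cells (0 and 0 of 4), striatal neurons, erythroid cells (1 and 0 of 4), choroid plexus (1 and 0 of 2), meninges (0 and 0 of 3), skeletal muscle (0 and 0 of 1) and nuclear RNA.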

Additional observations from a re-analysis of the deposited data

How the results depend on the processing

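The replicate difference was the result most dependent on processing. Spike-in scaling gave 9 members higher and 8 lower with a median log2 ratio of 0.014, and deposited TPM gave 4 higher with a median of -0.015, against 21, 4 and 0.14 with TMM. Nuclear protein-coding genes moved too, with 7.29% higher and 33.9% lower under spike-in scaling and 2.53% and 14.7% in deposited TPM, against 28.4% and 14.2%. With protein-coding transcripts only, a setting added after seeing the data, 2 members were lower, and the share of all genes called was not computed. Under spike-in scaling Slc2a3 turned to -0.020, Gpi1 to -0.068, Pdhb to -0.020 and Dlat to -0.018. In deposited TPM Gpi1 turned to -0.24, Pfkl to -0.0041, Eno2 to -0.018, Pdha1 to -0.038, Pdhb to -0.038, Dlat to -0.081, Dld to -0.019 and Pdk2 to -0.019. With DESeq2 size factors and with no count minimum, all 34 members kept their direction and call. Of the pairs, Pfkm over Pfkp turned to -0.11 in expected counts and Slc2a3 over Slc2a1 to -0.10 in the second quantification. The cause of these reversals was not tested. In expected counts, which are not per length, Pdha1 over Pdhb was 1.499 against 0.55, Pdk2 over Pdk1 0.37 against 1.45, Gapdh over Pgk1 1.04 against 2.44 and Gpi1 over Hk1 0.24 against 1.26.

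The members' share of protein-coding RNA was 1.81% in the second quantification and 0.909% in expected counts, which are not per length, against 1.45%. The upstream exon of Pkm held 48.2% in the second quantification and 49.2% in expected counts. With each replicate left out in turn, the Pkm share ranged from 52.4% to 55.1%, the members' share from 1.41% to 1.497%, the copies' share from 5.54% to 5.80% and the pairs called from 19 to 20, and 34 members were detected each time. Leaving out a replicate gives no value for the difference between them.

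No paired analysis was possible because there is 1 group. With 1 library on each side, a counting interval says nothing of variation between animals. Low counts limit Hk2, Slc16a3 and Pdk4, near-identical copies limit Eno1, Gapdh and Mpc1, and transcript assignment limits the level of Gapdh and the isoforms of Ldha, Hk1 and Pkm.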

Other observations

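Genes that receive carbon from the members were also listed. Of 22 genes of the citric acid cycle and the malate-aspartate shuttle, all were detected, and the highest were Mdh1, the cytosolic malate dehydrogenase, at 360.0 and 370 TPM, and Mdh2, its mitochondrial counterpart, at 177 and 186. Got1, the cytosolic aspartate aminotransferase, was at 169 and 179 TPM and Sdha, the flavoprotein of succinate dehydrogenase, at 147 and 151. Of 21 with enough counts, 18 were called higher in replicate 2 and 0 lower, with a median log2 ratio of 0.20, beside 28.4% and 14.2% of nuclear protein-coding genes. Those shares rise with depth, to 39.3% and 17.4% between 1000 and 5000 counts and 55.9% and 20.9% between 5000 and 50000. The count of 0 is of counting intervals with no test across replicates.

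The branches off glycolysis were lower. All 8 genes of the pentose phosphate pathway were detected, with medians of 13.5 and 12.8 TPM, led by Tkt, the transketolase, at 81.3 and 81.2 and Taldo1, the transaldolase, at 40.1 and 44.6. G6pdx, the entry enzyme, was at 12.3 and 12.2 TPM. Of the 8, 2 were called higher and 0 lower, with a median of 0.08, beside 28.4% and 14.2% of nuclear protein-coding genes. Of 12 glycogen genes, 11 were detected, with Pgm2l1, a glucose 1,6-bisphosphate synthase, at 124 and 117 TPM and Pygb, the brain glycogen phosphorylase, at 63.5 and 62.9. Gys2, the liver glycogen synthase, was listed at 0, a name chosen after its value was seen. Of 11 with enough counts, 3 were called higher and 0 lower, with a median of 0.12, beside the same 28.4% and 14.2%.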
